A study of Ciona robusta with 6 samples.

Results

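The blood sinus on the stomach side of the heart of the adult tunicate Ciona robusta was set against the central tube of the same heart. The comparison rests on 4 of the 6 bulk RNA-seq libraries of the series, namely 2 of the stomach blood sinus (SS) and 2 of the cardiac tube (C), and on all 793 genes that the deposited table lists. The members were taken by the column labels, and no gene was left out for its values. Each SS library held vessel pieces from pooled hearts, and each cardiac tube library held the tubular middle part. All animals were adult, wild caught and untreated, and no genotype or agent separated the groups. The other 2 libraries came from the pharyngeal blood sinus (PS) at the opposite end of the heart. They entered the model to share its estimate of the spread, and they served as the tissue most like the SS. According to the study's methods, pericardial cells were taken off, and every sinus piece kept a little of the adjoining heart muscle, so the SS libraries are not free of myocardium. The labels do not say that replicates came from separate pools of animals, so p-values measure the spread between these libraries, which may be technical.

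The heart of Ciona is a single tube of muscle, folded inside a pericardium, that pumps by waves of contraction and reverses the direction of the waves every few minutes. At either end it opens into blood sinuses without a continuous lining of the vertebrate endothelial type. Blood cells travel freely through them. The study asked whether the sinuses at the ends of such a heart are alike, as possible counterparts of the vessel chambers that flank the fish heart. Values are given in FPKM, a read level scaled to library size and divided by gene length. Differences are log2 fold changes of the SS over the cardiac tube on log2(FPKM + 1), with the standard error (SE) of the limma model and a Benjamini-Hochberg adjusted p over all 793 genes. A difference on this scale understates the change of a gene at a few FPKM. A gene passed the test when its adjusted p was under 0.05.

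The deposited per-library values, reads from which the authors had removed 1 factor of unwanted variation, summed to 1481832 and 1493761 in the SS and to 1838786 and 1950483 in the cardiac tube over the listed genes. The sequencing depth itself is unknown. Between 782 and 787 genes were above 0 in each library. The intermediate filament gene if-a alone took 11.3% and 10.97% of the sum in the SS libraries and 16.9% and 18.1% in the cardiac tube libraries. The removed factor ties the replicate differences of the groups to each other, so that a gene that is higher in one replicate of the SS tends to be lower in the same-numbered replicate of the cardiac tube or PS by construction. In bulk libraries, fewer cells of a type and less RNA per cell cannot be told apart.

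Of the 793 genes, 13 passed the test between the SS and the cardiac tube, a share of 1.64%. Higher in the SS were 10 genes (1.26%), which included the Hox gene hox3, the ParaHox gene ipf1, the Six-family gene six12, the germ line genes dead1a and soxh and the axonemal dynein gene dnal1. Lower were 3 genes (0.378%), the Iroquois gene irx-b, the vasopressin-type receptor gene ci-vp-r and LOC100177903. The libraries of the SS and the cardiac tube did not overlap in any of the 13. An unadjusted p under 0.05 was found for 182 genes (23%), 86 higher (10.8%) and 96 lower (12.1%). Over all genes the median log2 fold change was 0.02. The SS libraries both lay above both cardiac tube libraries in 247 genes (31.1%), and both lay below them in 240 (30.3%), 487 genes in all (61.4%). A log2 fold change above 0 was found for 416 genes (52.5%) and below 0 for 377 (47.5%).

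The number of calls was sensitive to the model. With each library shifted to a common median, which moved the median of all genes to -0.10, 76 genes passed, 20 higher and 56 lower, and all 13 were among them. Without any single SS or cardiac tube library 0 genes passed in limma, although the 13 kept their sign, and between 109 and 165 genes then had an unadjusted p under 0.05. Without PS replicate 1 or PS replicate 2, 90 and 92 genes passed.

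**Figure D1:**
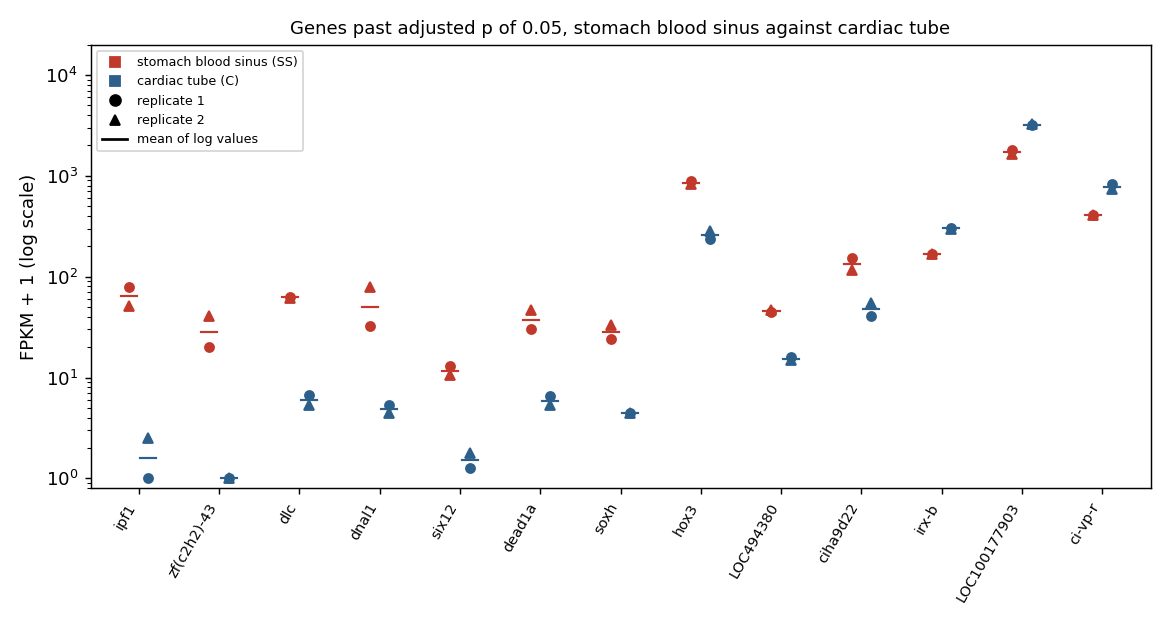
FPKM + 1 on a log axis for the 13 genes past an adjusted p of 0.05, by library, with SS libraries in red left of cardiac tube libraries in blue, replicate 1 as circles, replicate 2 as triangles, and a bar at the mean of the log values. In all 13 genes the SS libraries lie apart from the cardiac tube libraries, and among the higher genes the SS level runs from 11.9 and 9.53 FPKM for six12 to 879 and 831 FPKM for hox3.

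Homeobox genes encode transcription factors that set the identity of body regions and tissues, and hox3 gave the smallest p of the comparison. Its level was 879 and 831 FPKM in the SS libraries and 233 and 280.2 FPKM in the cardiac tube libraries. Mean hox3 was thus 3.33-fold higher in the SS (log2 fold change 1.74 ± 0.15, SE, limma adjusted p = 0.0183). Both SS replicates lay close together, well clear of the cardiac libraries. The PS had 1048 and 874 FPKM, and the SS minus PS difference was -0.16 on the log2 scale, with a 95% interval of -0.53 to 0.20.

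The gene ipf1, the Ciona member of the ParaHox family to which the vertebrate pancreas factor Pdx1 belongs, was at or close to 0 in the cardiac tube. It was listed at 0 and 1.51 FPKM there and at 78.5 and 50.7 FPKM in the SS, with a log2 fold change of 5.34 ± 0.77 (adjusted p = 0.0438). Its PS libraries were far apart, at 123 and 28.5 FPKM. The interval of the SS minus PS difference, -1.79 to 1.95, was therefore wide.

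The Six-family homeobox gene six12 reached 11.9 and 9.53 FPKM in the SS against 0.275 and 0.779 FPKM in the cardiac tube (log2 fold change 2.95 ± 0.46, adjusted p = 0.0474). The gene was weakly expressed in both parts, and its PS level of 22.6 and 11.4 FPKM enclosed one of the SS values. LOC494380 and ciha9d22, which no list of functions holds, had a like pattern. LOC494380 was at 43.3 and 46.1 FPKM in the SS, 52.7 and 51.5 FPKM in the PS and 14.8 and 14 FPKM in the cardiac tube (log2 fold change 1.57 ± 0.24, adjusted p = 0.0474). For ciha9d22 the values were 151 and 115 FPKM in the SS, 127 and 114 FPKM in the PS and 39.7 and 54.2 FPKM in the cardiac tube (log2 fold change 1.49 ± 0.24, adjusted p = 0.0488). All 5 of these genes, hox3, ipf1, six12, LOC494380 and ciha9d22, also passed between the PS and the cardiac tube. That comparison shares the cardiac libraries with this one, so it is no separate evidence on the cardiac side.

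Among the remaining homeobox genes none was higher past the threshold. The list of other homeobox genes held 29, of which six12 passed higher and irx-b lower, where 1.26% and 0.378% of all genes did. Its median log2 fold change was 0.11, against 0.02 over all genes. That median was -0.01 when each library was shifted to a common median. In 13 of the 29 both SS libraries lay above both cardiac libraries, and in 5 both lay below, where the shares over all genes were 31.1% and 30.3%. The LIM-homeobox gene isl, an Islet factor of second heart field progenitors in vertebrates, was at 115 and 171 FPKM in the SS and 70.0 and 50.8 FPKM in the cardiac tube (log2 fold change 1.22 ± 0.26, adjusted p = 0.0824). The vascular and hematopoietic homeobox gene hex was at 166 and 185 FPKM in the SS and 99.4 and 96.7 FPKM in the cardiac tube (0.83 ± 0.15, adjusted p = 0.0581). Both were separated by library and neither passed. For evx-a, an even-skipped type gene, SS replicate 2 was far above replicate 1, at 18 and 38.2 FPKM in the SS and 7.3 and 3.07 FPKM in the cardiac tube (2.23 ± 0.53, adjusted p = 0.0962). The mesodermal gene mox stood at 30.1 and 44.2 FPKM in the SS and 18.3 and 15.8 FPKM in the cardiac tube (adjusted p = 0.126) and msxb at 6.55 and 4.91 FPKM in the SS and 1.49 and 1.87 FPKM in the cardiac tube (adjusted p = 0.126). Of the 5 Hox and ParaHox genes, hox1, hox4 and hox5 did not pass. The values of hox4 were 438 and 569 FPKM in the SS and 414 and 298 FPKM in the cardiac tube and those of hox5 333 and 268 FPKM in the SS and 457 and 475 FPKM in the cardiac tube. The levels of hox1 were near 0 and overlapped, at 2.04 and 0 FPKM in the SS and 1.29 and 4.48 FPKM in the cardiac tube (log2 fold change -1.02 ± 0.72, adjusted p = 0.453).

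Vertebrate vessel walls are marked by ETS and SoxF transcription factors, and their Ciona relatives were read as markers of a vessel wall. The marker list held fli/erg1, fli/erg4, ets/pointed1, ets/pointed2 and hox3. Of these 5, 3 had a log2 fold change above 0 and 2 below, and 1, hox3, passed higher, where 1.26% of all genes did. The gene hox3 is neither an ETS nor a SoxF gene. The study named it for the sinuses on these same libraries, so its call is not independent evidence of a vessel wall. The summed level of the list was 1172 and 1147 FPKM in the SS and 557 and 568 FPKM in the cardiac tube, with no member at 0 in either. Nearly all of that gap was hox3 itself. The Fli/Erg gene fli/erg1 was at 68.4 and 66.1 FPKM in the SS and 34.6 and 38.5 FPKM in the cardiac tube (log2 fold change 0.86 ± 0.20, adjusted p = 0.0962). Its relative fli/erg4 ran the other way, at 85.8 and 101 FPKM in the SS and 125 and 117 FPKM in the cardiac tube (-0.38 ± 0.17, adjusted p = 0.268). For ets/pointed1 the values were 24.7 and 21.7 FPKM in the SS and 12 and 12.2 FPKM in the cardiac tube (adjusted p = 0.137). The whole list of 10 ETS genes had a median log2 fold change of -0.05, with 4 above 0, 6 below and none past the threshold. By library 3 of the 10 lay above the cardiac tube and 3 below, against 31.1% and 30.3% of all genes. soxF, whose vertebrate counterparts act in endothelial cells, was at 155 and 129 FPKM in the SS and 84.4 and 95.6 FPKM in the cardiac tube (adjusted p = 0.109), and soxB2 was at 202 and 257 FPKM in the SS and 185 and 141 FPKM in the cardiac tube (adjusted p = 0.193). The study names 6 of these sinus genes, hox3, ipf1, six12, isl, fli/erg1 and ets/pointed1. All 6 had a positive log2 fold change with libraries that did not overlap (31.1% of all genes), and 3 passed (1.26% of all genes). The study chose them on these libraries, so that count is not independent evidence of their direction.

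The SS stood above both other parts in the germ line genes dead1a and soxh, and the axoneme genes lay on the same side. An axoneme is the microtubule core of cilia and of sperm tails, moved by dynein motors and braced by radial spokes. The gene dead1a encodes a DEAD-box helicase of the Vasa type, a family known for germ cells. Its level was 29 and 45.3 FPKM in the SS, against 4.03 and 3.09 FPKM in the PS and 5.51 and 4.3 FPKM in the cardiac tube. It was higher in the SS than in the cardiac tube (log2 fold change 2.66 ± 0.39, adjusted p = 0.0438) and higher than in the PS (3.04 ± 0.39, adjusted p = 0.0321). All SS libraries lay above all 4 others.

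The SoxH gene soxh belongs to a Sox group known from vertebrate testis. It showed the same order, with 23.2 and 31.9 FPKM in the SS, 4.7 and 3.14 FPKM in the PS and 3.43 and 3.49 FPKM in the cardiac tube. The log2 fold change was 2.66 ± 0.38 over the cardiac tube (adjusted p = 0.0438) and 2.54 ± 0.38 over the PS (adjusted p = 0.0457). The gene dlc had 62.6 and 61.1 FPKM in the SS, 0 and 1.13 FPKM in the PS and 5.71 and 4.32 FPKM in the cardiac tube, and passed in both comparisons (3.39 ± 0.46 over the cardiac tube, adjusted p = 0.0438, and 5.43 ± 0.46 over the PS, adjusted p = 0.0107). Its 2 SS values differed by little, unlike those of the axoneme genes described next.

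In the cardiac tube, zf(c2h2)-43, a C2H2 zinc finger gene, was listed at 0 in both libraries. It reached 19 and 39.3 FPKM in the SS and 1.14 and 0.571 FPKM in the PS. On log2(FPKM + 1) the SS minus C difference was 4.83 ± 0.49 (adjusted p = 0.0242), a size that depends on the pseudocount and is no bound. The SS minus PS difference was 3.95 ± 0.49 (adjusted p = 0.0299). Together with dead1a, soxh and dlc, it made up the 4 genes that passed both against the cardiac tube and against the PS.

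Among the axoneme genes, dnal1, which encodes an axonemal dynein light chain, passed. Its values were 31.7 and 77.2 FPKM in the SS, 8.65 and 4.34 FPKM in the PS and 4.37 and 3.44 FPKM in the cardiac tube. The log2 fold change over the cardiac tube was 3.37 ± 0.55 (adjusted p = 0.0495) and that over the PS was 2.82 ± 0.55 (adjusted p = 0.0795). SS replicate 2 was far above SS replicate 1, and both were above every other library.

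The whole axoneme list held 21 genes, which included radial spoke proteins, tektins, dynein intermediate chains and central pair proteins. Every one of the 21 had a positive log2 fold change, with a median of 1.32 and a range of 0.40 to 3.37, against a median of 0.02 over all genes. In 20 of them (95.2%) both SS libraries lay above both cardiac tube libraries, where 31.1% of all genes did so. Past the adjusted threshold was 1 gene, dnal1, where 1.26% of all genes passed higher. An unadjusted p under 0.05 was found for 13, all higher, where 10.8% of all genes were so. The list was chosen with earlier results of these data known, so these counts are not independent evidence. The radial spoke gene ci-rsp9 was at 43.3 and 136 FPKM in the SS and 16.5 and 10.6 FPKM in the cardiac tube (adjusted p = 0.109) and ci-rsp4/6 at 49.9 and 156 FPKM in the SS and 31.7 and 17.4 FPKM in the cardiac tube (adjusted p = 0.141). The tektin gene tektinB1, for a filament of the doublet microtubules, was at 22.9 and 62.7 FPKM in the SS and 8.67 and 8.19 FPKM in the cardiac tube (adjusted p = 0.132). Against the PS the list's median was 1.69, with no member past the threshold.

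These axoneme genes also separated the SS replicates from each other. All 21 were higher in SS replicate 2 than in SS replicate 1, by a median of 2.44-fold, where 425 of the 793 genes (53.6%) were higher and the median ratio was 1.02. The list summed to 1054 and 2186 FPKM in the SS, 755 and 491 FPKM in the PS and 781 and 659 FPKM in the cardiac tube. All 21 were lower in PS replicate 2 than in PS replicate 1, and 16 were lower in cardiac tube replicate 2 than in replicate 1, an order that the removed factor ties to that of the SS. Without SS replicate 2 the median log2 fold change was 0.74 with 20 of 21 above 0, and without SS replicate 1 it was 2.07 with all 21 above 0. Under 14 of the 18 alternatives 0 or 1 of the 21 passed. Between 14 and 16 passed under the other 4, which were the 4 SS and cardiac tube libraries alone, the fits without PS replicate 1 or PS replicate 2 and a crossed replicate block, and these fits called 11.3% to 38.2% of all genes.

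**Figure D2:**
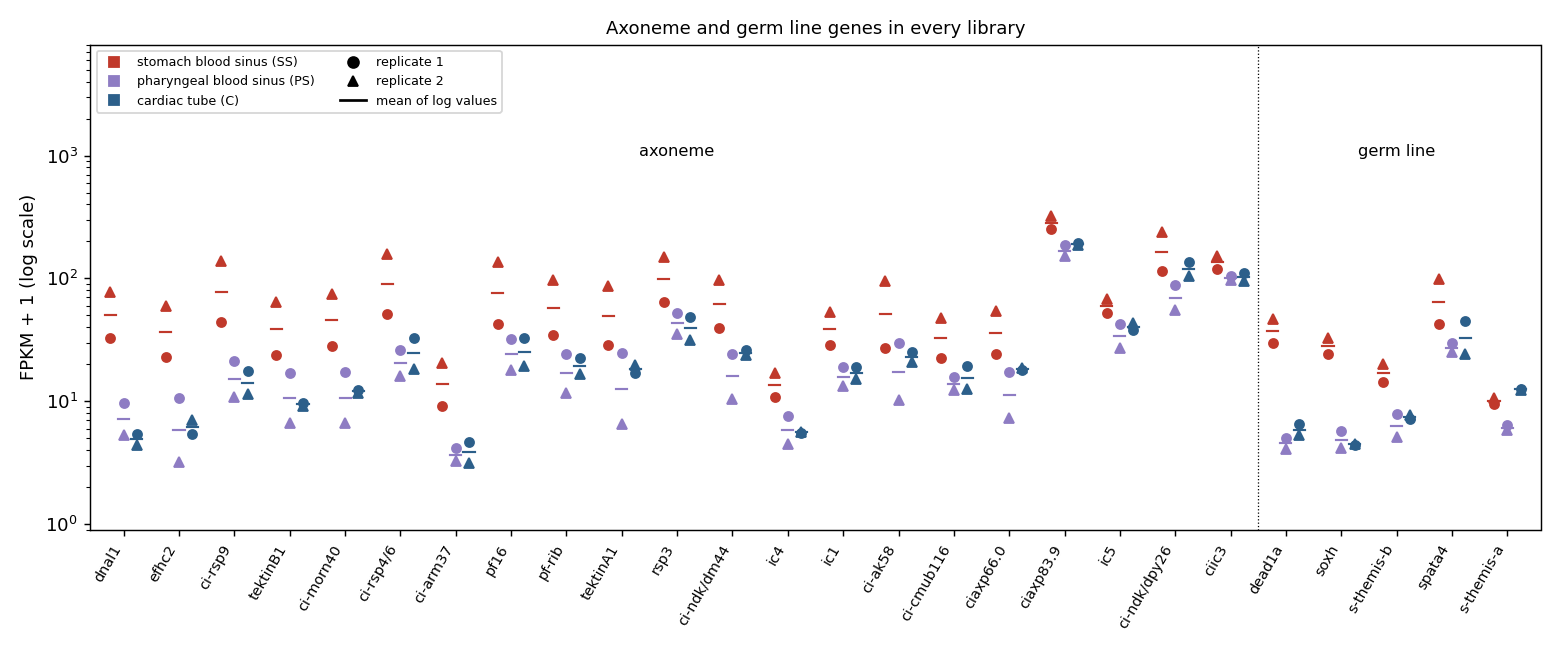
FPKM + 1 on a log axis for the 21 axoneme genes, sorted by log2 fold change, and the 5 genes of the germ line and fertilization list, by library, with SS in red, PS in violet and cardiac tube in blue, replicate 1 as circles and replicate 2 as triangles, and a bar at the mean of the log values. SS replicate 2 is the highest library in all 21 axoneme genes, while dead1a and soxh have both SS libraries well above the other 4.

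Of the 12 genes in the list of germ line and sperm markers, 6 are also in the axoneme list. In this list 4 passed higher (dlc, dead1a, soxh and dnal1), where 1.26% of all genes did so. SS libraries lay above the cardiac libraries in 11, where 31.1% of all genes did so, and the fertilization gene s-themis-a lay below. The list was chosen with earlier results of these data known, so these counts are not independent evidence. The summed level of the list was 395 and 899 FPKM in the SS, 177 and 96.5 FPKM in the PS and 166 and 125 FPKM in the cardiac tube. No marker was at 0 in both libraries of the SS or of the cardiac tube. The part of cells of the germ line, or of ciliated cells, in these SS values was not tested. Among members of these lists that did not pass, the EF-hand gene efhc2 of the axoneme list was at 21.9 and 58.3 FPKM in the SS and 4.46 and 6.06 FPKM in the cardiac tube (adjusted p = 0.119), and the leucine-rich repeat gene lrr37 of the marker list was at 19.9 and 63.7 FPKM in the SS and 8.54 and 5.38 FPKM in the cardiac tube (adjusted p = 0.124). SS replicate 2 was likewise the higher in calx and LOC778994, which no list holds, and in zf(c2h2)-110, a C2H2 zinc finger gene. For calx the values were 37.7 and 79.9 FPKM in the SS and 9.07 and 4.28 FPKM in the cardiac tube (log2 fold change 2.94 ± 0.49, adjusted p = 0.0522). LOC778994 was at 19.4 and 73.3 FPKM in the SS and 4.71 and 4.45 FPKM in the cardiac tube (adjusted p = 0.12), and zf(c2h2)-110 at 12.8 and 43.8 FPKM in the SS and 2.43 and 1.38 FPKM in the cardiac tube (adjusted p = 0.0788).

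Compared directly with the PS, the SS differed past the threshold in 10 genes (1.26%), and 118 (14.9%) had an unadjusted p under 0.05. Higher in the SS were 4 (0.504%), dlc, zf(c2h2)-43, dead1a and soxh. Lower were 6 (0.757%), among which th, the tyrosine hydroxylase gene of catecholamine synthesis, had the largest difference. It was at 1.2 and 0.838 FPKM in the SS and 222 and 88.2 FPKM in the PS (-6.13 ± 0.57, adjusted p = 0.0107), and the cardiac tube had 0.423 and 1.6 FPKM. The homeobox genes pax3/7-like (1.6 and 1.26 FPKM in the SS and 66.3 and 40.4 FPKM in the PS) and hnf6 (0.188 and 0.198 FPKM in the SS and 15.2 and 13.7 FPKM in the PS) were likewise close to the cardiac level in the SS, as were opsin3, fut8 and LOC100101819. In this group of 6 the SS held no more than 2.05 FPKM in any library.

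**Figure D3:**
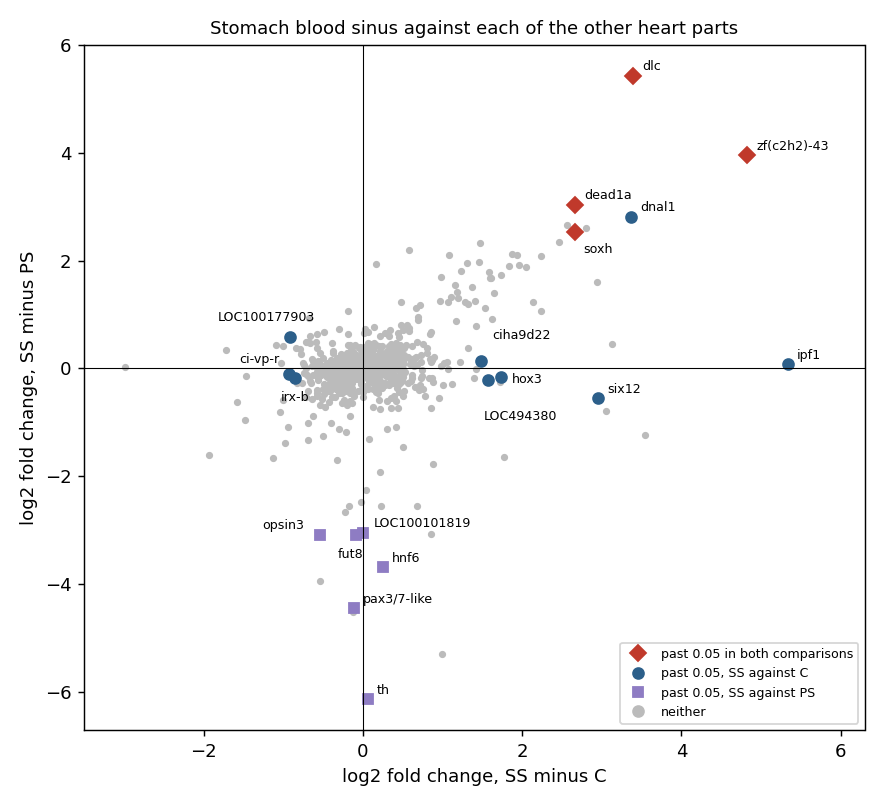
Log2 fold change of the SS over the cardiac tube (horizontal) and over the PS (vertical) for all 793 genes, both axes on log2(FPKM + 1) and both using the same SS libraries. Red diamonds (dlc, zf(c2h2)-43, dead1a, soxh) passed in both comparisons, blue circles against the cardiac tube and violet squares against the PS, and hox3, ipf1 and six12 lie near 0 on the vertical axis.

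On the lower side, the Iroquois gene irx-b, a homeobox gene known from heart chambers of vertebrates, was at 166 and 168 FPKM in the SS and 306 and 298 FPKM in the cardiac tube. Its log2 fold change was -0.85 ± 0.12 (adjusted p = 0.0438), and the replicates of each part were nearly equal. The receptor gene ci-vp-r, for a peptide of the vasopressin and oxytocin family, fell to 409 and 412 FPKM in the SS, against 832 and 731 FPKM in the cardiac tube (-0.92 ± 0.13, adjusted p = 0.0438). LOC100177903, an abundant transcript without an annotation in the sources used here, was at 1789 and 1639 FPKM in the SS and 3217 and 3228 FPKM in the cardiac tube (-0.91 ± 0.11, adjusted p = 0.0438). These 3 changes were small, with means in the cardiac tube 1.81 to 1.9 times those in the SS, where the smallest of the 10 higher genes, ciha9d22, was 2.84-fold higher in the SS. In the PS, irx-b had 188 and 189.9 FPKM, ci-vp-r 413 and 471 FPKM and LOC100177903 1102 and 1182 FPKM.

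The list of cardiac regulators, 14 transcription factors and cofactors of heart muscle, had a median log2 fold change of -0.34, against 0.02 over all genes. irx-b was its 1 called gene, where 0.378% of all genes passed lower. In 9 of the 14 both SS libraries lay below both cardiac libraries, where 30.3% of all genes did so. That share was not particular to this list. Also below by library were 8 of 11 stress and AP-1 genes, 9 of 15 nuclear receptors and 6 of 10 complement, Toll-like and cytokine genes. nk4, the Ciona counterpart of the vertebrate cardiac factor Nkx2.5, was at 398 and 445 FPKM in the SS and 611 and 616 FPKM in the cardiac tube (log2 fold change -0.54 ± 0.13, adjusted p = 0.0962). The orphan nuclear receptor coup was at 41.8 and 41.4 FPKM in the SS and 66.2 and 84.4 FPKM in the cardiac tube (adjusted p = 0.13) and the muscle methyltransferase gene smyd1 at 437 and 382 FPKM in the SS and 489 and 574 FPKM in the cardiac tube (adjusted p = 0.182). None of these 3 passed, although their libraries did not overlap. For hand, a bHLH heart factor, the values were 140.0 and 128 FPKM in the SS and 165 and 165 FPKM in the cardiac tube (adjusted p = 0.282), and for foxf, 50.5 and 63.4 FPKM in the SS and 81.3 and 95.5 FPKM in the cardiac tube (adjusted p = 0.257). gataa did not separate the parts, at 675 and 857 FPKM in the SS and 710.2 and 686 FPKM in the cardiac tube.

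Muscle genes had a median closer to that of all genes, but most were lower by library. The list of muscle and cytoskeleton genes held 12, with a median of -0.14 and none past the threshold. In 7 of the 12 (58.3%) both SS libraries lay below both cardiac libraries and in 1 above, against 30.3% and 31.1% of all genes. The tropomyosin gene tropm1 was at 7071 and 7352 FPKM in the SS and 9102 and 8245 FPKM in the cardiac tube (log2 fold change -0.26 ± 0.14, adjusted p = 0.322), so the SS libraries held most of the cardiac level. The intermediate filament gene if-a, the most abundant transcript listed, was at 56125 and 57531 FPKM in the SS and 110117 and 118307 FPKM in the cardiac tube (-1.01 ± 0.27, adjusted p = 0.11). Mean if-a in the cardiac tube was 2.01 times that in the SS, a larger gap than for any called lower gene, but with a wider SE. The LIM and SH3 domain gene lasp was at 208 and 198 FPKM in the SS and 268 and 257 FPKM in the cardiac tube (adjusted p = 0.15). The 4 cardiac muscle markers, nk4, tropm1, hand and gataa, summed to 8283 and 8781 FPKM in the SS and 10589 and 9712 FPKM in the cardiac tube, none at 0, with none of the 4 past the threshold. How far the muscle left on the sinus pieces sets these levels was not tested. A list of genes of the cardiac tube, made from those the study names, held 7, nk4, irx-b, fgf9/16/20, ephrinb, coup, sfrp1/5 and tropm1. Of these, sfrp1/5 is not named in the study's text. All 7 had SS libraries below the cardiac ones (30.3% of all genes) and 1 passed (0.378% of all genes). The list was chosen with results of these libraries known, so that is not independent evidence of their direction.

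**Figure D4:**
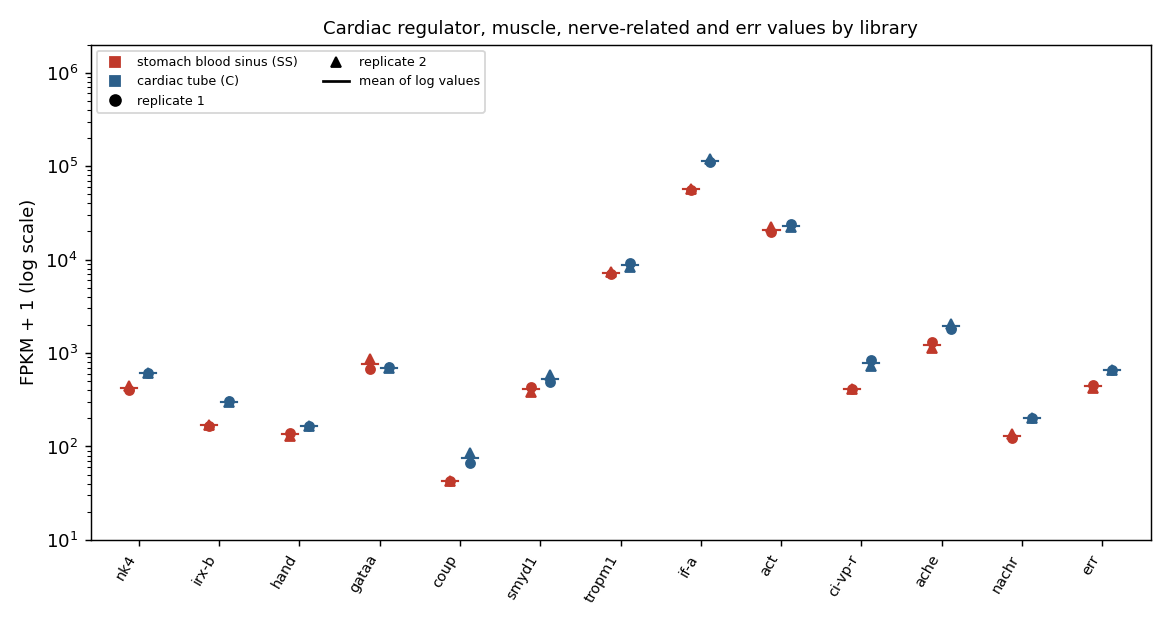
FPKM + 1 on a log axis for cardiac regulators (nk4, irx-b, hand, gataa, coup, smyd1), muscle and cytoskeleton genes (tropm1, if-a, act), acetylcholine and peptide signalling genes (ci-vp-r, ache, nachr) and err, by library, with SS in red left of cardiac tube in blue, replicates as circles and triangles and a bar at the mean of the log values. SS libraries lie below cardiac tube libraries in 12 of the 13 genes plotted, and those of gataa overlap. The plotted genes were picked by hand, so that count is not the share of any list. In the whole lists 9 of 14 cardiac regulators and 7 of 12 muscle and cytoskeleton genes lay below, against 30.3% of all genes.

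Nerve and neuropeptide genes lay on both sides. Of 18 on the list, ci-vp-r passed lower and none passed higher, where 0.378% and 1.26% of all genes did. The median was 0.17. The acetylcholine genes were lower by library without passing. Acetylcholinesterase, ache, was at 1303 and 1130.3 FPKM in the SS and 1819 and 2039 FPKM in the cardiac tube (log2 fold change -0.67 ± 0.12, adjusted p = 0.0637), and the nicotinic receptor subunit gene nachr was at 122 and 134 FPKM in the SS and 200.5 and 200.5 FPKM in the cardiac tube (-0.64 ± 0.15, adjusted p = 0.0962). The gonadotropin-releasing hormone gene gnrh1 lay on the other side, at 11.1 and 23.3 FPKM in the SS, 24.4 and 62.3 FPKM in the PS and 1.17 and 0 FPKM in the cardiac tube (SS minus C 3.54 ± 0.64, adjusted p = 0.0618). Its receptors gnrhr2 and ci-gnrhr4 were at 2.88 and 8.68 FPKM in the SS and 1.52 and 0.36 FPKM in the cardiac tube and at 23 and 31 FPKM in the SS and 14.3 and 13.9 FPKM in the cardiac tube (adjusted p = 0.157 and 0.147). The tachykinin gene tk was at 7.52 and 6.9 FPKM in the SS and 1.99 and 3.76 FPKM in the cardiac tube (adjusted p = 0.206). The 6 nerve markers (th, ache, gad, opsin3, gnrh1 and tk) summed to 1396 and 1225 FPKM in the SS and 1881 and 2104 FPKM in the cardiac tube, most of it ache. None was at 0 in both libraries of either part, and th was at 1.2 and 0.838 FPKM in the SS and 0.423 and 1.6 FPKM in the cardiac tube.

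Digestive and pharyngeal genes served as a check of the neighbouring organs. Of the 6 stomach and intestine markers none passed, and their sum was 342 and 389 FPKM in the SS against 323 and 298 FPKM in the cardiac tube. The gene ciap, which the study associates with digestion, was at 129.9 and 133 FPKM in the SS and 92.7 and 73.8 FPKM in the cardiac tube (log2 fold change 0.66 ± 0.20, adjusted p = 0.13). The glycosyl hydrolase gene gh18 was at 25.9 and 67.3 FPKM in the SS and 32.2 and 23.6 FPKM in the cardiac tube (0.58 ± 0.55, adjusted p = 0.571), and its SS replicate 1 lay within the cardiac range. The endoderm factor foxa-a stood lower in the SS, at 0.995 and 0.834 FPKM in the SS and 6.11 and 4.58 FPKM in the cardiac tube (-1.72 ± 0.41, adjusted p = 0.0991). The Onecut gene hnf6 had 0.188 and 0.198 FPKM in the SS and was listed at 0 in the cardiac tube, and hnf4 was level, at 184 and 186 FPKM in the SS and 192 and 196 FPKM in the cardiac tube. Apart from ipf1, no gene of the digestive list of 7 passed. The 3 endostyle and pharynx markers (endostyle-specific, tgfbeta2 and pax3/7-like) summed to 102 and 112 FPKM in the SS, 323 and 1175 FPKM in the PS and 85.7 and 57.9 FPKM in the cardiac tube. The part of stomach, gut or pharynx tissue in the SS values was not tested.

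Blood cells fill both parts, and their markers went both ways. The 8 markers, vanabins, complement and Toll-like receptor genes, had log2 fold changes from -0.63 to 0.89, 4 above 0 and 4 below. By library 3 lay above and 2 below, against 31.1% and 30.3% of all genes. They summed to 10217 and 12293 FPKM in the SS, 18141 and 15066 FPKM in the PS and 13593 and 13046 FPKM in the cardiac tube. None was at 0 and none passed the threshold. Vanabins are vanadium-binding proteins of ascidian blood cells. vanabin4 was at 3138 and 4427 FPKM in the SS and 6091 and 5437 FPKM in the cardiac tube (log2 fold change -0.63 ± 0.22, adjusted p = 0.158), while vanabin1 (1951 and 2172 FPKM in the SS and 2115 and 2057 FPKM in the cardiac tube) overlapped between the parts. The complement gene c3-1 was at 1719 and 1786 FPKM in the SS and 1601 and 1648 FPKM in the cardiac tube. Among 10 complement, Toll-like and cytokine genes none passed, and the cytokine gene tnfa was at 611 and 688 FPKM in the SS and 1057 and 865 FPKM in the cardiac tube (adjusted p = 0.109). Of 7 interferon regulatory factor-like genes none passed, with irf-like-3 at 122 and 128 FPKM in the SS and 87.7 and 95.5 FPKM in the cardiac tube (adjusted p = 0.187).

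**Figure D5:**
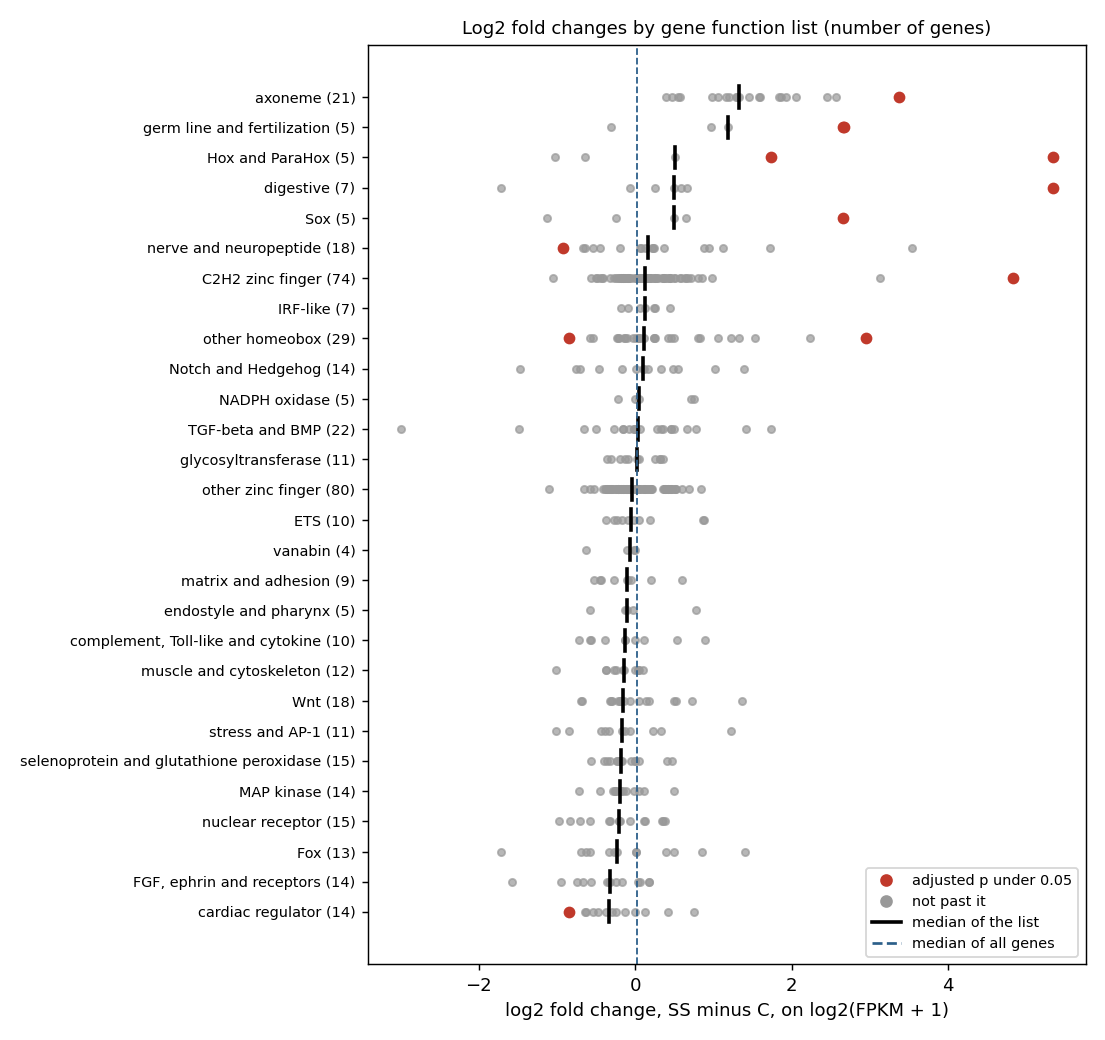
Log2 fold change of the SS over the cardiac tube on log2(FPKM + 1) for every gene of 28 function lists, with the number of genes in brackets, a black bar at the median of the list, red points for genes past an adjusted p of 0.05, and a dashed line at the median of all genes. The axoneme and the germ line lists lie highest, with medians of 1.32 and 1.18, and the cardiac regulators lie lowest, with a median of -0.34.

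Signalling pathways showed no called gene in the lists for Wnt, TGF-beta and BMP, FGF and ephrin, MAP kinase, or Notch and Hedgehog, 82 entries in all. Over all genes 1.64% passed, so an absence of calls among 82 entries does not set these 5 lists apart. FGF and ephrin ligands and their receptors had the lowest median of these, -0.33, with SS libraries below cardiac libraries in 9 of 14, where 30.3% of all genes lay so. The ligand gene fgf9/16/20 was at 2.41 and 5.05 FPKM in the SS and 17.5 and 8.96 FPKM in the cardiac tube (log2 fold change -1.58 ± 0.49, adjusted p = 0.132), and ephrinb, a membrane-bound ligand of Eph receptors, at 560.1 and 539.5 FPKM in the SS and 936 and 812 FPKM in the cardiac tube (-0.66 ± 0.14, adjusted p = 0.0828). fgf-na1 was at 68.6 and 66 FPKM in the SS and 101 and 128 FPKM in the cardiac tube (adjusted p = 0.126). MAP kinase genes, which carry FGF signals inward, had a median of -0.19, with 9 of 14 below and 2 above by library, against 30.3% and 31.1% of all genes.

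Wnt genes lay on both sides, 6 of 18 above and 9 below by library, where 31.1% and 30.3% of all genes did so. The ligand genes wnt5 (444 and 404 FPKM in the SS and 259 and 335 FPKM in the cardiac tube, adjusted p = 0.158) and wnt3 (39.3 and 53.4 FPKM in the SS and 32.1 and 23 FPKM in the cardiac tube, adjusted p = 0.205) lay higher in the SS by library, and the third ligand gene, wnt-a, lay lower. The Frizzled receptor gene fz3/6 (119 and 134 FPKM in the SS and 232 and 179.9 FPKM in the cardiac tube, adjusted p = 0.113) also lay lower. Secreted Frizzled-related proteins, which bind Wnt ligands outside the cell, went both ways, with sfrp3/4-b at 304 and 315 FPKM in the SS and 219.8 and 219 FPKM in the cardiac tube (adjusted p = 0.0962) and sfrp1/5 at 1061 and 1079 FPKM in the SS and 1355 and 1328 FPKM in the cardiac tube (adjusted p = 0.13). The median of the 18 Wnt genes was -0.16.

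In the TGF-beta and BMP list, with a median of 0.04 over 22 genes, no gene passed. The lowest log2 fold change was that of admp, a BMP-type ligand gene, at 1.36 and 0.284 FPKM in the SS and 6.89 and 23.3 FPKM in the cardiac tube (log2 fold change -2.99 ± 0.65, adjusted p = 0.0845), with the cardiac libraries themselves far apart. The highest was that of tgfbeta-na3, at 1.24 and 5.19 FPKM in the SS and 0 and 0.247 FPKM in the cardiac tube (1.74 ± 0.56, adjusted p = 0.138), levels at which a fold is imprecise. The gene lefty/antivin, whose product blocks Nodal signals, was at 133 and 174 FPKM in the SS and 53.5 and 59 FPKM in the cardiac tube (1.42 ± 0.25, adjusted p = 0.0611). The ligand gene tgfbeta2 was at 79 and 101 FPKM in the SS, 129 and 125 FPKM in the PS and 56.7 and 46.7 FPKM in the cardiac tube (SS minus C adjusted p = 0.11). bmp5/7-like was at 173 and 165 FPKM in the SS and 253 and 278 FPKM in the cardiac tube (adjusted p = 0.0738). tgfbeta-na4 was also lower by library without passing, with log2 fold changes from -1.83 to -1.13 when single libraries were left out. In the Notch and Hedgehog list mama had the smallest p, at 1364 and 1878 FPKM in the SS and 863 and 727 FPKM in the cardiac tube (1.01 ± 0.19, adjusted p = 0.0637). The Hedgehog effector gene gli was at 221 and 289 FPKM in the SS and 480.2 and 378 FPKM in the cardiac tube (adjusted p = 0.103) and the Notch ligand gene delta-like at 4.64 and 6.16 FPKM in the SS and 1.31 and 1.55 FPKM in the cardiac tube (adjusted p = 0.124). The lowest log2 fold change of this list was -1.47, that of e(spl)/hairy-a, which lay lower by library without passing. By library 5 of the 14 lay above and 4 below, against 31.1% and 30.3% of all genes.

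Fox genes and nuclear receptors, both families of transcription factors, had medians of -0.24 and -0.21 and no called gene. foxp was at 294 and 348 FPKM in the SS and 501 and 453 FPKM in the cardiac tube (adjusted p = 0.0976). foxm, a factor of dividing cells in vertebrates, was at 7 and 9.74 FPKM in the SS and 2.93 and 2.12 FPKM in the cardiac tube (adjusted p = 0.12). Of the 13 Fox genes, 6 had a log2 fold change above 0 and 7 below. The estrogen-related receptor err, which in vertebrates acts on genes of energy metabolism, was at 459 and 423 FPKM in the SS, 270.2 and 297 FPKM in the PS and 664 and 651 FPKM in the cardiac tube (SS minus C -0.58 ± 0.12, adjusted p = 0.0727), and the nuclear receptor fxr was at 66.7 and 81.2 FPKM in the SS and 128 and 114 FPKM in the cardiac tube (adjusted p = 0.11). The immediate early gene fos, a subunit of the AP-1 factor, was at 72.6 and 68.5 FPKM in the SS and 155 and 131 FPKM in the cardiac tube (log2 fold change -1.01 ± 0.20, adjusted p = 0.0693), and its partner jun was at 498 and 478 FPKM in the SS and 680.2 and 639 FPKM in the cardiac tube (adjusted p = 0.11). The heat shock gene hsp40 showed the replicate gap of the axoneme genes, at 57.7 and 192 FPKM in the SS and 49.1 and 40.2 FPKM in the cardiac tube.

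No gene of the matrix, selenoprotein and glutathione peroxidase, or NADPH oxidase lists passed, where 1.64% of all genes did. Collagen XVIII, a basement membrane collagen, was at 3442 and 3835 FPKM in the SS and 5335 and 4608 FPKM in the cardiac tube (adjusted p = 0.132), and leprecan, for a collagen-modifying enzyme, at 278 and 233 FPKM in the SS and 377 and 356 FPKM in the cardiac tube (adjusted p = 0.136). The 9 matrix and adhesion genes had a median of -0.10. By library 5 of the 9 lay below the cardiac tube and 1 above, against 30.3% and 31.1% of all genes. Of the 15 selenoprotein and glutathione peroxidase genes, 7 lay below and 2 above. Glutathione peroxidases differed in direction among themselves, with gpx7 at 315 and 346 FPKM in the SS and 516 and 463 FPKM in the cardiac tube (adjusted p = 0.0828), gpx_b at 423 and 445 FPKM in the SS and 340.1 and 317 FPKM in the cardiac tube (adjusted p = 0.113) and gpx_d at 321 and 325 FPKM in the SS and 247 and 217 FPKM in the cardiac tube (adjusted p = 0.118). The NADPH oxidase subunit gene p47phox was at 29.1 and 29.7 FPKM in the SS and 18.2 and 16.9 FPKM in the cardiac tube (adjusted p = 0.174).

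Zinc finger genes made up the largest families of the table. Of 74 C2H2 zinc finger genes, zf(c2h2)-43 passed, where 1.64% of all genes passed in either direction. Their median log2 fold change was 0.12, or 0.01 with each library shifted to a common median. The lowest log2 fold change of the 74 was -1.04, that of ci-zf(c2h2)-42, which lay lower by library without passing. Of 80 other zinc finger genes none passed, with a median of -0.04. Against 1.64% over all genes, neither count of calls sets zinc finger genes apart. In all, 448 of the 793 genes were in at least 1 function list. Among the genes outside the lists with an unadjusted p under 0.05 that did not pass, the highest and the lowest log2 fold changes were those of LOC445593 (144 and 289 FPKM in the SS and 37.7 and 14.9 FPKM in the cardiac tube, log2 fold change 3.05 ± 0.51, adjusted p = 0.0522) and, in the opposite direction, cinut (4.99 and 4.58 FPKM in the SS and 19.2 and 23.1 FPKM in the cardiac tube, -1.93 ± 0.33, adjusted p = 0.0522).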

How the data were processed

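RNA from pooled pieces of adult Ciona robusta hearts was sequenced as 6 libraries, 2 per part. Per the labels and the study's methods, the authors trimmed reads with cutadapt, aligned them with STAR to the UCSC genome ci3, counted uniquely aligned reads with featureCounts (Subread) and removed 1 RUVs factor within DESeq2. The methods refer for these libraries to the pipeline and tool versions of the study's zebrafish libraries. The deposited FPKM were the main values. The deposited per-library score column, headed as raw, holds whole numbers with the factor already removed, since 1 weighted sum of replicate differences was close to 0 in all 179 genes above a mean of 1000, so no count model was used. The authors' log2 fold changes and p-values (PValue, FDR) and their mean columns were deposited in the same table and were not used.

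Values were fitted as log2(FPKM + 1) with limma 3.58.1 in R 4.3.3, all 6 libraries, 3 groups, a term for the removed factor and a trend of the variance on the level. The fit had 2 residual and 4.02 prior degrees of freedom, and the median SE was 0.209. All 793 genes were tested with no filter. Alternatives changed the term, trend, pseudocount, filter, scaling, values, replicate block and libraries. Named genes were drawn from those past the threshold and from the 8 highest and 8 lowest non-overlapping genes with an unadjusted p under 0.05 that did not pass. They were also drawn from up to 4 members of each function list with the smallest p, the genes the study names and the marker lists. Not every gene that met a rule is described, and any other gene was chosen after its values were seen. Members, lists and tests were chosen with earlier results of these data known, and list membership was matched by exact symbol. The reference table held 0 of the 793 identifiers, so no coordinates or sequences are given. Reads shared between near-identical or overlapping gene copies could not be checked. The numbers here cover no counting interval, since depth is unknown.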

Additional observations from a re-analysis of the deposited data

Results flagged for a closer look

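The effects of the 2 sinuses against the same cardiac libraries differed in 10 genes, tested as the SS minus PS difference in limma on log2(FPKM + 1), adjusted p under 0.05. The SS was higher in dlc (5.43, adjusted p = 0.0107), zf(c2h2)-43 (3.95, adjusted p = 0.0299), dead1a (3.04, adjusted p = 0.0321) and soxh (2.54, adjusted p = 0.0457). The SS was lower in th (-6.13, adjusted p = 0.0107), pax3/7-like (-4.44, adjusted p = 0.0107), hnf6 (-3.69, adjusted p = 0.0181), opsin3 (-3.09, adjusted p = 0.0337), fut8 (-3.08, adjusted p = 0.0337) and LOC100101819 (-3.05, adjusted p = 0.0337). In each of the 10 both SS libraries lay on the same side of both PS libraries.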

How the results depend on the processing

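All 13 genes kept their sign under every alternative run for the SS against the cardiac tube, but the number of calls moved widely. Against the 13 (10 higher, 3 lower), there were 113 (47 and 66) where the factor term was dropped, 26 (18 and 8) with genes under a mean of 5 FPKM left out, 92 (52 and 40) with the 4 compared libraries alone, 76 (20 and 56) with median scaling, 2 with a pseudocount of 0.1, 2 with a pseudocount of 10, 0 without the trend (154 at an unadjusted p under 0.05) and 0 on the adjusted values without scaling (181). Divided by size factors, an alternative chosen after seeing the data, the adjusted values gave 32 (18 and 14), 12 of the 13 among them. Leaving out a single library gave 0 to 92 calls, 0 for each SS or cardiac library. Against the PS, the 10 calls became 33 without the term, 2 with a pseudocount of 0.1, 3 with the filter, 17 on the size-factored adjusted values and 0 to 58 without a single library. Genes with libraries that do not overlap numbered 487, against 463 on the adjusted values and 459 with the filter. With the replicate number as a block in place of the term, 13 genes passed, the same genes, and 10 against the PS. The term weighted the replicate differences by 0.64 in the cardiac tube, 0.53 in the PS and 0.55 in the SS. The block is thus almost the same covariate as the term, and its result is no separate check. With block and term together 0 passed in either comparison (139 and 83 at an unadjusted p under 0.05). According to the study's methods, whole hearts were cut into the parts and then pooled. The labels do not say whether same-numbered libraries came from the same hearts, so the parts may be paired. Deviations from group means correlated at -0.54 for SS and C, -0.46 for PS and C and -0.46 for SS and PS. The removed factor makes them negative, so they cannot tell whether the parts were paired. A block with crossed numbers, chosen after seeing the data, gave 303 calls (158 higher, 145 lower). Leaving out single libraries, the log2 fold change of gh18 ran from -0.089 to 1.26 and the SS minus PS difference of ipf1 from -0.95 to 1.12. The cause of these shifts was not tested. With 2 libraries per part and unknown depth, genes at a few FPKM are the least precise.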
